A study of Mus musculus with 4 samples.

Results

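The comparison described here set DKmix day 50, mouse bone marrow cells carrying a β-catenin retrovirus and kept in culture for 50 days, over eGFP day 3, the same kind of starting cell carrying an enhanced green fluorescent protein retrovirus and collected at day 3. Its members were all probe sets with a single gene symbol on the array, 34945 of 45101, which stood for 18193 genes. The series held 4 arrays: these 2, β-catenin-transduced cells at day 3 (β-catenin day 3) and the β-catenin-transduced culture at day 300 (DKmix day 300). All 4 samples started from lineage-negative, Sca-1-positive, c-kit-positive (LSK) cells, the bone marrow fraction that holds the blood-forming stem cells and their earliest progeny, and all were grown with serum, IL-3, SCF, Flt3 and IL-11. The sources used here do not give the strain, age or sex of the mice, the promoter of the vectors, or whether DKmix was 1 clone. One aim of the study was to find genes, transcription factors above all, that go with the immortalization of blood stem cells by β-catenin. In this pair the retrovirus and the time in culture differed together, so their shares cannot be told apart. Each group was 1 array, with no replicates, so every difference is between 2 single arrays and has no test.

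Mast cells are tissue-resident blood cells that store proteases, histamine, serotonin and heparin in granules and release them when IgE bound to its high-affinity receptor is cross-linked by antigen. Bone marrow progenitors grown in IL-3, alone or with SCF, the ligand of the receptor Kit, are a standard source of cultured mast cells. Neutrophils and macrophages arise from the same progenitors and fill other granules with myeloperoxidase, serine proteases, lactoferrin and calprotectin. They depend on factors of the C/EBP family, while mast cells depend on GATA2 and MITF. β-catenin is the protein through which Wnt signals reach TCF/LEF factors in the nucleus.

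Values were MAS5 signal intensities on a linear scale with the same trimmed mean on each array. Any value under 48.3, the pooled median and called the floor here, was treated as 48.3. A ratio with 1 side at this floor gives only the smallest difference possible and is written "at least", and genes under it on both sides count as not measured. Ratios and log2 ratios are DKmix day 50 over eGFP day 3 throughout unless another pair is named, and a gene was counted as higher or lower at 2-fold or more. Of the 18193 genes, 13820 were measured, 9153 on both arrays, 2538 on DKmix day 50 only and 2129 on eGFP day 3 only. By this rule 2151 genes were higher (15.6% of those measured) and 2071 were lower (15%). List counts below are to be read beside these 2 shares. Lower bounds made up 813 of the higher and 715 of the lower genes. The median log2 ratio was 0.03, with quartiles at -0.62 and 0.68. At 8-fold or more 165 genes were higher and 161 lower, and at 64-fold or more 13 and 15. Without replicates, the error could be gauged only from how far the log2 ratios of 2 probe sets for 1 gene differed. The SD of that difference over 3446 genes, divided by the square root of 2, was 0.71. This is the spread of a single probe set, not of the difference, and it leaves out any difference between cultures.

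The array controls differed between arrays. The 3′ over 5′ signal of Gapdh was 4.14 at eGFP day 3 and 4.96 at DKmix day 50, against 1.18 at β-catenin day 3 and 1.06 at DKmix day 300. For β-actin the pair read 1.83 and 3.41, and for the trpn control 1.65 and 5.22, so the 2 arrays were close by Gapdh and less so by these. For the thr control the order was turned, with 19.5 at eGFP day 3 and 14.8 at DKmix day 50. The 9 probe sets of the hybridisation controls were higher at DKmix day 50 by a mean log2 of 0.54, SD 0.28. Scaled on them, the median log2 ratio of all genes was -0.41, and 1025 genes were higher and 3715 lower, so every ratio below is relative to the trimmed mean. On that scale 16 of the 54 list medians took the other sign, among them lipid mediators, exocytosis, receptors for the culture cytokines, GATA, MITF and SCL factors, eosinophil and basophil genes, Wnt components, p53 genes and lysosome, all of which were above 0 here. The part of these controls in any result was not tested.

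The labelled starting cell was checked against its defining markers. Kit, which encodes the c-kit receptor for SCF, read 55.8 at eGFP day 3 and 82.9 at β-catenin day 3, both near the floor, and 3460 at DKmix day 50 and 1263 at DKmix day 300. The day 3 arrays therefore stood low and the DKmix arrays high for a gene that the labels used to isolate all of the cells. A second probe set of Kit gave 43.7, 82.0, 1031.3 and 879.0 in the same order. Flt3, the receptor for another of the added ligands, was at the floor on both arrays compared. Of 9 matched stem and progenitor markers, 3 were above the floor at eGFP day 3 with a summed intensity of 445, and 7 at DKmix day 50 with 6399. Kit (3460), also counted among the mast cell markers, and Cd34 (2068) made up most of the latter sum. The 11 neutrophil markers summed to 87251 at eGFP day 3, where all 11 were above the floor, and to 346 at DKmix day 50, where 2 were. The 11 matched mast cell markers went the other way, from 826 to 172686, with 9 above the floor on each array. Macrophage markers summed to 29654 (7 of 10 above the floor) and 801 (6), dendritic cell markers to 4302 (5 of 8) and 335 (4), and basophil and eosinophil markers to 1293 (3 of 6) and 521 (2). In RNA from bulk cells, fewer cells of a type and less RNA per cell cannot be told apart.

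**Figure D1:**
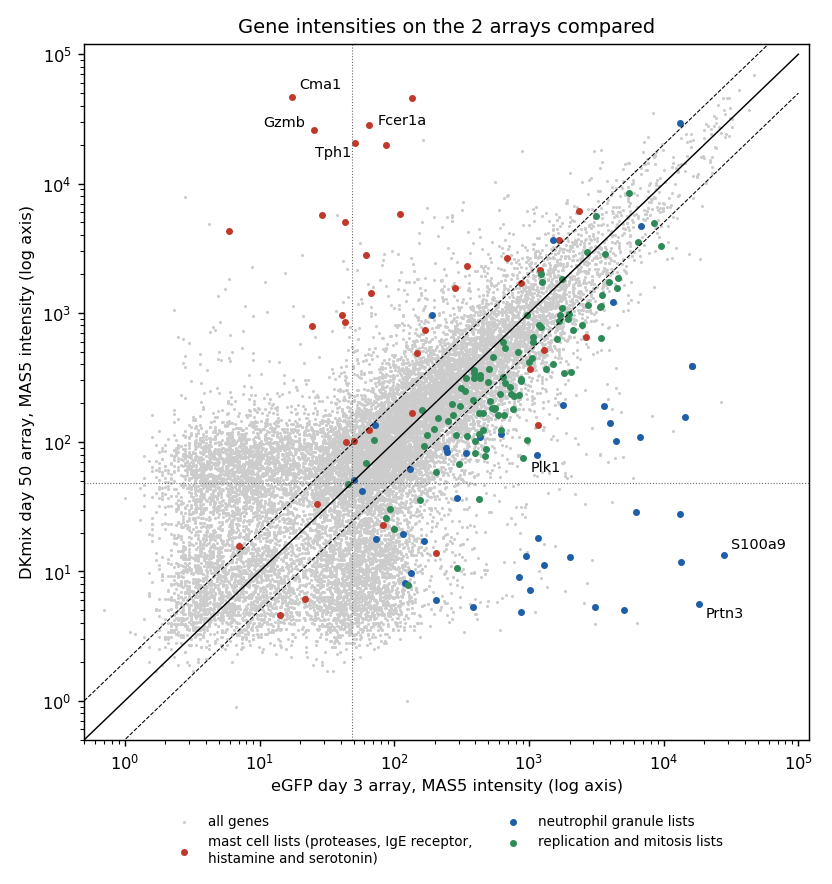
Each point is 1 gene, placed by its MAS5 intensity on the eGFP day 3 array (horizontal, log axis) and the DKmix day 50 array (vertical, log axis). The solid line marks equal intensity, the dashed lines 2-fold differences and the dotted lines the floor of 48.3. Mast cell genes such as Cma1 and Fcer1a lie at the upper left, neutrophil granule genes such as S100a9 and Prtn3 at the lower right, and most replication and mitosis genes just below the diagonal.

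The largest differences were in genes known from these cell types. Among the 6595 genes that reached 4 times the floor on either array, the 12 with the highest ratios were Cma1, Gzmb, Fcer1a, Tph1, Cpa3, Ms4a2, Igfbp5, Prnp, Tpsg1, Avil, Mcpt2 and Inpp4b, between at least 973-fold and at least 101-fold. Of these, 8 were in the mast cell lists described below. The 12 with the lowest ratios were S100a9, Prtn3, Ngp, S100a8, Lpl, Mgst2, Lyz1, Ccl6, Pglyrp1, Csf1r, Lyz2 and Ccl9, between at least 582-fold and at least 85.1-fold lower. They include the calprotectin subunits, and granule proteins, lysozymes and chemokines of neutrophils and macrophages.

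Mast cell granule proteases had the highest median of the 54 gene lists: of 10 measured members 8 were higher and 2 lower, with a median log2 ratio of 6.20 against 0.03 over all genes. Cma1, a mast cell enzyme of the chymase family, read 17.3 at eGFP day 3 and 46986 at DKmix day 50, at least 973-fold higher. Cpa3, the carboxypeptidase of mast cell granules, read 134.7 and 45531, a 338-fold difference. On both genes the 2 DKmix arrays were high, with 16866 and 15951 at DKmix day 300. They parted at β-catenin day 3, where Cma1 was below the floor at 6.9 and Cpa3 stood at 1560. Gzmb, granzyme B, went from 25.4 to 25886 (at least 536-fold), with 1462 at β-catenin day 3 and 897.7 at DKmix day 300. The tryptases Tpsb2, from 111.1 to 5820, and Tpsg1, from 28.9 to 5748, were 52.4-fold and at least 119-fold higher, and a second Tpsb2 probe set gave 3.26-fold. Mcpt2, a mucosal-type chymase, read 43.4 and 4998 and was back near the floor at DKmix day 300 (53.3). Mcpt4, the connective-tissue chymase, was 3.31-fold higher (147.7 and 489.5) and below the floor on the other arrays. The lower members were Ctsg, cathepsin G, which neutrophil precursors also store (16275 to 384.9, 42.3-fold), and Mcpt8, a basophil protease (1023 to 370.4, 2.76-fold). Tpsab1 and Mcpt1 were at the floor on both arrays. The Mcpt and Tps genes are clusters of close paralogues, so a probe set may read more than 1 of them.

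Promoters of 4 genes at the top of the comparison are shown, as the 250 bases before the start, from RefSeq on build GRCm38.p6 (minus strand in each case, 5′ to 3′), because GATA factors are known to act at mast cell genes. Capitals mark a GATA motif, AGATAA or TGATAA on either strand. Cma1 (chr14:55944676-55944925) held 0, Cpa3 (chr3:20242182-20242431) held 1, Fcer1a (chr1:173227230-173227479) held 1 and Ms4a2 (chr19:11623720-11623969) held 3.
Cma1: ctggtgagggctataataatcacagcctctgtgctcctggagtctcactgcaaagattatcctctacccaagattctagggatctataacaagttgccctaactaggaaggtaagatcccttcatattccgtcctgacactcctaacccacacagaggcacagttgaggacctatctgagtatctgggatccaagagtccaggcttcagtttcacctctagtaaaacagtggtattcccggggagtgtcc
Cpa3: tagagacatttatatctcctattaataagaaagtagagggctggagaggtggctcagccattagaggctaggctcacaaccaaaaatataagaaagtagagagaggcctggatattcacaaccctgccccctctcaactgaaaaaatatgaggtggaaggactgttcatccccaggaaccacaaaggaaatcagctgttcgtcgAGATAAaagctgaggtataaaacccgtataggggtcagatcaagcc
Fcer1a: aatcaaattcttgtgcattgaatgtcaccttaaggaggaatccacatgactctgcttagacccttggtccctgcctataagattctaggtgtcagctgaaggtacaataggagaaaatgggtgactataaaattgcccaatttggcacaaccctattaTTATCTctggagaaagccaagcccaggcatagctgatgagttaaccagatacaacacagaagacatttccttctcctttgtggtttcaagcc
Ms4a2: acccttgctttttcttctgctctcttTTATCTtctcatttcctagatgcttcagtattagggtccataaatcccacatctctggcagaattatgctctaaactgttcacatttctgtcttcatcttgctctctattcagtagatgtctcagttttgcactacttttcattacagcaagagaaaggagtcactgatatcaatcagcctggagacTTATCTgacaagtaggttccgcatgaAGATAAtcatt
The motif began 46 bases before the start in Cpa3, 92 in Fcer1a, and 224, 37 and 11 in Ms4a2. It was present in 5 of the 11 highest-ratio genes that had a promoter in the table, in 3 of 10 of the lowest-ratio genes, in 10.6% of 11118 measured genes and in 17% of all 27025 promoters. A match describes these letters only and is not a site.

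The high-affinity IgE receptor and the proteins that carry its signal formed the next group, with 11 of 16 measured members higher, 3 lower and a median log2 ratio of 1.66. Fcer1a, the chain that binds IgE, read 64.4 at eGFP day 3 and 28507 at DKmix day 50, a 443-fold difference. Ms4a2, the receptor's β chain, read 87.3 and 19763, 226-fold higher. Fcer1g, the signalling chain shared with other Fc receptors and present in many myeloid cells, was 2.60-fold higher (2362 and 6134). The 2 chains particular to this receptor were thus near the floor at eGFP day 3, and the shared chain was well above it. At β-catenin day 3 Fcer1a stood at 723.5 and Ms4a2 at 810.6, between eGFP day 3 and the DKmix arrays. Among the adaptors, Clnk read 24.5 and 787.5 (at least 16.3-fold higher), and Gab2 347.7 and 2305 (6.63-fold). Fgr, a Src-family kinase abundant in neutrophils and macrophages, was 8.61-fold lower (1167 to 135.6).

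Of 9 measured genes that make, store or break down histamine and serotonin 5 were higher and 1 lower, with a median log2 ratio of 4.13. Tph1, which starts serotonin synthesis in peripheral cells, read 51.0 and 20674 (405-fold higher), and Ddc, which completes it, 42.8 and 844.1 (at least 17.5-fold). Gch1, which supplies the cofactor of Tph1, was 45.2-fold higher (61.5 to 2781), and Slc18a2, the vesicular transporter that loads amines into granules, 21.0-fold higher (67.5 to 1419). Maob, which breaks amines down, read 5.9 and 4273, with 9.1 at β-catenin day 3 and 219.6 at DKmix day 300. Slc6a4, the serotonin uptake transporter, was lower (205.5 to 14.0, at least 4.25-fold). Hdc, the enzyme that makes histamine, could not be given a direction. Its brighter probe set read 82.4 and 23.0, short of 2-fold, and its other one 10.0 and 124.4, at least 2.58-fold higher, and only DKmix day 300 stood high by both (1514.3 and 1323.3).

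Lipid mediator genes were past 2-fold about as often as all genes. Of 12 measured members 2 were higher and 2 lower, with a median log2 ratio of 0.40. That was 16.7% each way, against 15.6% and 15% of all measured genes. Alox5, the first enzyme of leukotriene synthesis, read 5182 and 14269 (2.75-fold higher), and Hpgds, which makes prostaglandin D in mast cells, 68.4 and 440.9 (6.45-fold). Lta4h, which leads to the neutrophil attractant leukotriene B, was 4.38-fold lower (11543 to 2637). Ltc4s, which leads to the cysteinyl leukotrienes of mast cells, read 1875 and 1039, short of 2-fold, against 145.4 at β-catenin day 3.

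Heparin is built on the core protein serglycin, and of 13 measured genes for the core, the chain and its sulfation 8 were higher and 1 lower, with a median log2 ratio of 1.16. Srgn, serglycin itself, was already bright at eGFP day 3 and 2.23-fold higher at DKmix day 50 (13152 to 29397). Ndst2, the sulfotransferase needed for mast cell heparin, read 80.8 and 2337 (28.9-fold higher), and Hs3st1 36.8 and 1030 (at least 21.3-fold). Hs2st1 and Hs6st1, which add other sulfates, were 3.56-fold and 4.18-fold higher by the sets used. The other probe sets of Hs2st1 were all short of 2-fold, at 1.84-fold higher, 1.01-fold lower and 1.26-fold lower.

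**Figure D2:**
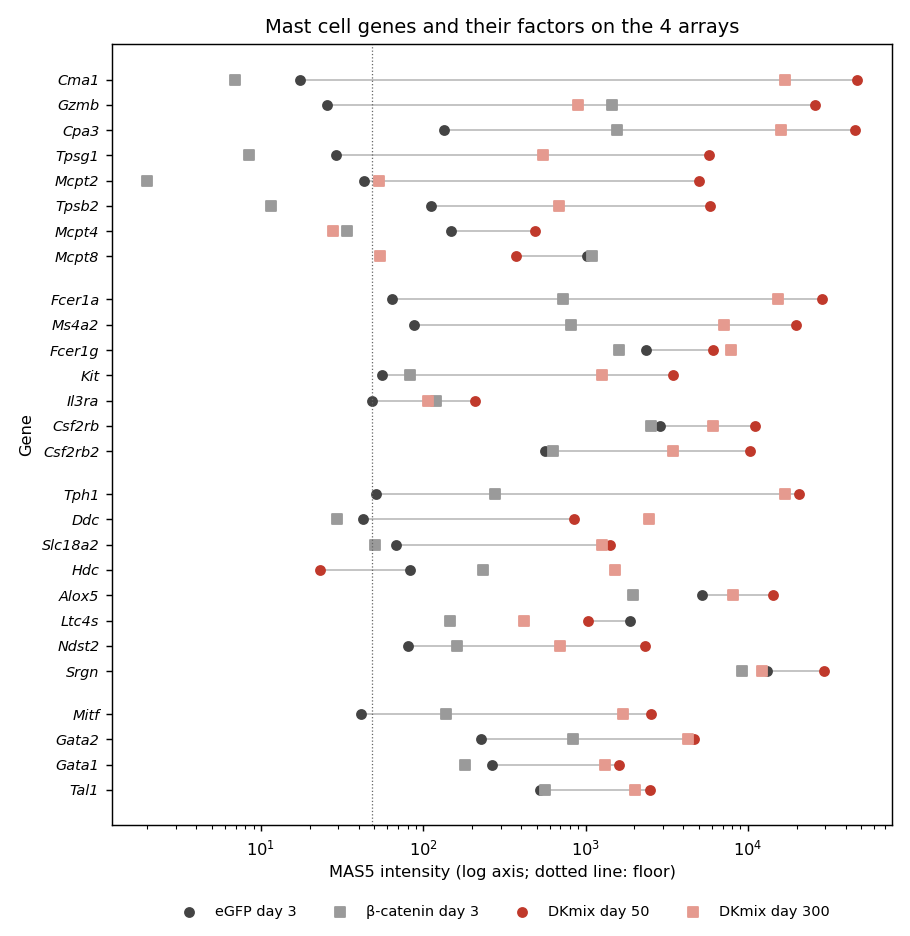
Each row is 1 gene and each symbol 1 array, placed by MAS5 intensity (log axis), with a grey line joining eGFP day 3 (dark circle) to DKmix day 50 (red circle). The dotted line is the floor of 48.3. Most mast cell genes lie far to the right at DKmix day 50, with DKmix day 300 beside or to the left of it, while Hdc, Ltc4s and Mcpt8 run the other way between the 2 circles.

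Secretion genes differed member by member. Of 24 measured exocytosis genes 6 were higher and 4 lower, with a median log2 ratio of 0.20. Rab27b, a small GTPase of mast cell and platelet granules, read 107.0 and 2846 (26.6-fold higher), while its relative Rab27a was 4.81-fold lower (710.9 to 147.9). The fusion protein Stx3 was 31.4-fold higher (82.1 to 2579), and Vamp8, its partner on granules, 3.91-fold lower (2448 to 626.4). Of 14 measured mast cell surface receptors 9 were higher and 3 lower, among them Cd200r3 (44.4 to 2195, at least 45.4-fold) and the adenosine receptor Adora3 (45.2 to 288.2, at least 5.97-fold). Siglecf, a lectin of eosinophils and of some macrophages, was at least 6.52-fold lower (315.0 to 10.0). Of 13 measured cytokines of mast cells and basophils 5 were higher and 2 lower. Il4 read 72.4 and 539.4 (7.45-fold higher), Il6 4.7 and 739.2 (at least 15.3-fold) and Tgfb1 603.7 and 3289 (5.45-fold). Il1b was lower (129.0 to 6.4, at least 2.67-fold), against 1278 at β-catenin day 3.

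Of 8 measured receptors for the cytokines in the medium 4 were higher and 1 lower. Their median log2 ratio of 1.21 was 0.24 with the floor at percentile 25, 0.49 over plain _at probe sets and -0.05 on the hybridisation control scale. Csf2rb, the signalling chain shared by the IL-3, IL-5 and GM-CSF receptors, read 2889 and 11030 (3.82-fold higher), and Csf2rb2, the mouse copy that serves IL-3 alone, 562.2 and 10363 (18.4-fold). These copies are close paralogues and probe sets may cross-read them. Il3ra, the IL-3 binding chain, read 48.4, at the edge of the floor, and 208.8 (4.31-fold higher). Csf2ra, the GM-CSF binding chain, was 6.90-fold lower (1614 to 233.9). Downstream, 4 of 18 JAK-STAT genes were higher and 2 lower. Socs1, an inhibitor of JAK kinases, was 14.2-fold higher (51.5 to 731.4) and Socs2 3.48-fold, while Cish, a STAT5 target, read 897.9 and 897.4. Ptpn6, the phosphatase SHP-1, was 10.3-fold lower (1272 to 123.3), and the other arrays read 1960 and 944.7, so DKmix day 50 stood apart on it.

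Several transcription factors of the mast cell lineage were higher. Mitf, which mast cells and pigment cells need, read 41.3 and 2533 (at least 52.5-fold higher), and a second probe set gave at least 2.25-fold. Gata2, which mast cells and stem cells share, read 227.2 and 4648 (20.5-fold), with 5.44-fold by a second set, and Gata1 266.1 and 1612 (6.06-fold). Tal1, the SCL protein that binds with them, was 4.75-fold higher (522.2 to 2481). DKmix day 300 was also high on each of these, at 1706, 4279, 1325 and 2003. The same list held 4 lower members of 16 measured, with 6 higher and a median log2 ratio of 0.19. They included Zfpm1, the GATA1 cofactor FOG1, which holds back mast cell formation (836.3 to 180.8, 4.63-fold), Klf1, an erythroid factor (302.6 to 36.9, at least 6.26-fold), and the MITF relative Tfec (398.8 to 4.7, at least 8.26-fold).

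Factors of stem and progenitor cells were higher in 8 of 27 measured and lower in 2, with a median log2 ratio of 0.57. Meis1, a homeobox partner of Hoxa9, read 44.1 and 318.1 (at least 6.59-fold higher), Mecom 7.6 and 235.4 (at least 4.87-fold), Gfi1 44.9 and 274.6 (at least 5.68-fold), and Ikzf2, Helios, 122.3 and 1721 (14.1-fold). Bmi1, a Polycomb protein of self-renewing cells, was 2.65-fold higher (208.0 to 551.1). Hoxa9 read 23.8 and 71.5 and Hlf 103.0 and 154.0, both short of 2-fold. The β-catenin day 3 array read 194.7 for Meis1, 266.1 for Hoxa9 and 263.7 for Gfi1, above eGFP day 3 on each, so the 2 day 3 arrays differed on these genes.

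Several factors that drive granulocytes and monocytes ran against this. Cebpd read 1094 and 56.0 (19.5-fold lower), Cebpb 3776 and 284.0 (13.3-fold), Cebpa 385.1 and 107.6 (3.58-fold) and Irf8, a monocyte and dendritic cell factor, 355.7 and 46.4 (at least 7.36-fold). Spi1, PU.1, was 1.72-fold lower (1260 to 734.9), short of 2-fold. The wider list of myeloid factors, which also contains AP-1 genes, was nearer to even. It held 10 lower and 8 higher members of 32, with a median log2 ratio of -0.14. In the list of immediate early genes 9 of 18 were higher and 1 lower, with a median log2 ratio of 0.90. Jun read 45.6 and 1320 (at least 27.3-fold higher), Junb 4.3 and 706.3 (at least 14.6-fold), Egr1 648.2 and 7744 (11.9-fold) and Fos 440.5 and 2301 (5.22-fold). DKmix day 50 was the brightest of the 4 arrays for 13 of the 18, against 34.2% of all measured genes. Id1, an inhibitor of E proteins, was at least 22.9-fold lower (1106 to 4.9), and Id2 2.36-fold higher (2160 to 5102). Myc read 633.4 and 399.5, short of 2-fold. Among its antagonists Mxd1 and Mxi1 were 6.95-fold and 8.10-fold lower and Mxd4 5.81-fold higher (1130 to 6561).

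Neutrophil granule genes had the 2 lowest medians of the 54 lists. For calprotectin and the secondary granules 24 of 29 measured members were lower and 1 higher, with a median log2 ratio of -2.99, and for the primary granules 12 of 15 were lower and 2 higher, with a median of -3.22. S100a9 and S100a8, the subunits of calprotectin, read 28112 and 13231 at eGFP day 3 and 13.5 and 27.7 at DKmix day 50, at least 582-fold and at least 274-fold lower. Ngp, neutrophilic granule protein, read 13424 and 11.8 (at least 278-fold lower), Ltf, lactoferrin, 4017 and 141.3 (28.4-fold), Lcn2, an iron-siderophore binder, 1294 and 11.3 (at least 26.8-fold), and Camp, the cathelicidin peptide, 943.4 and 13.1 (at least 19.5-fold). In the primary granules Prtn3, proteinase 3, read 18175 and 5.6 (at least 376-fold lower), Elane, neutrophil elastase, 3111 and 5.3 (at least 64.4-fold), and Mpo, myeloperoxidase, 4426 and 101.4 (43.6-fold).

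The eGFP day 3 array stood high for these genes. It was the brightest of the 4 for 24 of the 29 secondary and 11 of the 15 primary granule genes. Among all measured genes it was the brightest for 27.3%. At β-catenin day 3 S100a9 stood at 290.0, S100a8 at 328.0, Ngp at 99.5 and Ltf at 8.4, against 4254 for Prtn3, 264.5 for Elane and 2231 for Mpo. Over β-catenin day 3, a pair that shares the DKmix day 50 array, the list medians were -1.32 and -2.16. The members that were higher at DKmix day 50 included Srgn, the serglycin core that mast cells share.

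Promoters of 2 of the lowest genes are shown the same way, since C/EBP factors are known to act at neutrophil granule genes. Capitals mark a C/EBP motif, TTGCNNAA on either strand. S100a9 (chr3:90695722-90695971, minus strand) held 1 match and Ngp (chr9:110419558-110419807, plus strand) held 2.
S100a9: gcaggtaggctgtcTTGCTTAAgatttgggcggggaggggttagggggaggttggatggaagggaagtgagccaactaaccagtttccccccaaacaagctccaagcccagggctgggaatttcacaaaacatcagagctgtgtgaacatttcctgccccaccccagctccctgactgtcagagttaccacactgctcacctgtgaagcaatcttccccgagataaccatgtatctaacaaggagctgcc
Ngp: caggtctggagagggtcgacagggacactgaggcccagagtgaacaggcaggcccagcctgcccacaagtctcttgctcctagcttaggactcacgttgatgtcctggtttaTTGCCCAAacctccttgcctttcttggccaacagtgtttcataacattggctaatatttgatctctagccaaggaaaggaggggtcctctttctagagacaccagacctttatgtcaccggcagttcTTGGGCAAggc
The match began 236 bases before the start in S100a9, and 138 and 11 in Ngp. It was present in 3 of 10 of the lowest-ratio genes with a promoter in the table, in 1 of 11 of the highest, in 7.71% of measured genes and in 9.55% of all promoters. S100a8, Prtn3, Elane and Lyz2 held 0, which says only that these letters are not in those 250 bases.

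Macrophage and monocyte genes were lower in 18 of 40 measured and higher in 2, with a median log2 ratio of -0.57. Csf1r, the receptor for M-CSF, read 11798 and 121.1 (97.4-fold lower), and 2 further probe sets gave 35.1-fold and 3.34-fold. Lyz2 and Lyz1, the lysozymes, were 92.2-fold and 129-fold lower (14390 to 156.0 and 26572 to 205.8). These are near-identical copies that probe sets may not separate. Mpeg1, a pore-forming protein of macrophages, read 2568 and 5.7 (at least 53.2-fold lower), Cybb, the phagocyte oxidase, 2638 and 80.5 (32.8-fold), and Adgre1, the F4/80 antigen, 484.6 and 127.0 (3.82-fold). Cx3cr1, a chemokine receptor of monocytes, was an exception by the set used, 8.88-fold higher (169.5 to 1505). Its other probe set read 64.2 and 6.8, at least 1.33-fold lower. Lpl, lipoprotein lipase, was at least 131-fold lower (6326 to 4.0).

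The MHC class II genes, through which dendritic cells and macrophages present antigen, were lower with their list, 11 of 21 measured against 1 higher, median -1.25. H2-Aa read 1852 and 7.1 (at least 38.3-fold lower), Cd74, the invariant chain, 1243 and 58.8 (21.1-fold), H2-DMa, which loads peptides, 2710 and 8.1 (at least 56.1-fold), and Itgax, the CD11c integrin, 743.2 and 6.5 (at least 15.4-fold). On H2-Aa and Cd74 the β-catenin day 3 array stood above eGFP day 3, at 8396 and 7680. The list median was -3.27 over β-catenin day 3, in contrast to the neutrophil lists, which lay further from 0 over eGFP day 3. Ciita, the master activator of this set, read 54.8 and 63.7, close to the floor.

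**Figure D3:**
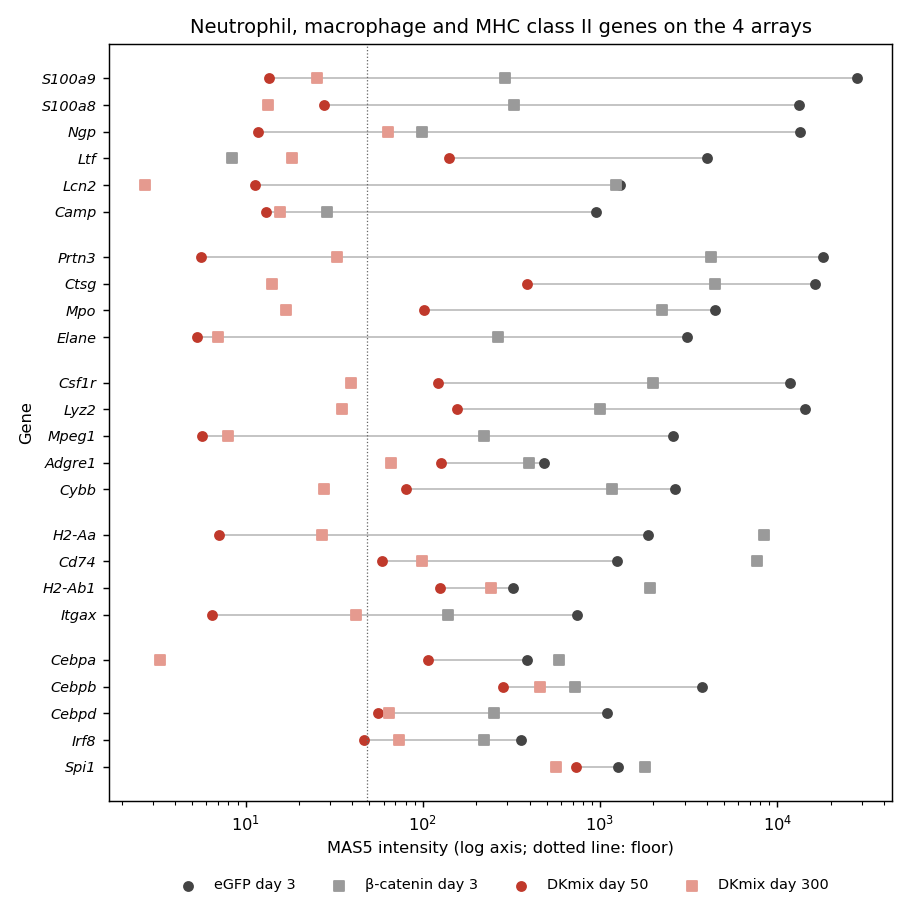
Each row is 1 gene and each symbol 1 array, placed by MAS5 intensity (log axis), with a grey line joining eGFP day 3 (dark circle) to DKmix day 50 (red circle). The dotted line is the floor of 48.3. Calprotectin and secondary granule genes are brightest at eGFP day 3, the class II genes H2-Aa, Cd74 and H2-Ab1 at β-catenin day 3, and nearly all are low at DKmix day 50.

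Chemokines and adhesion molecules of phagocytes were also lower. Of 17 measured chemokine ligands 9 were lower and 1 higher, median -1.45. Ccl6 and Ccl9, made by myeloid cells, read 5948 and 4111 at eGFP day 3 and 53 and 34.2 at DKmix day 50. Ccl2, the monocyte attractant, was the member that was higher, from 20.5 to 2786 (at least 57.7-fold), and stood at 3909 at DKmix day 300. Cxcr4, the receptor that holds progenitors in the marrow, was at least 13.5-fold lower (653.4 to 11.9). Of 17 integrins 7 were lower and 3 higher. Itgb2, the chain shared by the leukocyte integrins, was 19.6-fold lower (4679 to 239.1) and Itga4 at least 26.7-fold lower (1290 to 16.3), while Itgb7, through which mast cell progenitors enter the intestine, was 9.32-fold higher (234.0 to 2180). Itga4 read 545.3 at β-catenin day 3 and 665.8 at DKmix day 300, so on this gene DKmix day 50 stood apart from all 3 others.

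Progenitor surface markers were higher in 7 of 22 measured and lower in 3, median 0.58. Cd34, a sialomucin of progenitors and mast cells, read 111.8 and 2068 (18.5-fold higher), Cd93 324.0 and 7248 (22.4-fold) and Angpt1, the ligand of Tie2, 106.6 and 1518 (14.2-fold). Thy1 was at least 24.6-fold lower (1188 to 10.1) and Prom1, CD133, at least 19.7-fold lower (950.9 to 33.1). Megakaryocyte genes were divided, with 5 of 20 higher and 7 lower. Itga2b, the CD41 integrin, also known on cultured mast cells, was 10.5-fold higher (595.1 to 6230) and F2r, a thrombin receptor, 20.5-fold higher (267.2 to 5471), while the platelet chemokine Pf4 was 26.0-fold lower (1794 to 69.0) and the integrin Itgb3 at least 10.4-fold lower. Vwf, von Willebrand factor, read 1412 at DKmix day 50 against 158.2 at eGFP day 3 and 4.6 at DKmix day 300. Of 23 erythroid genes 6 were lower and 0 higher, with the globin Hba-a1 at 67.0 and 25.5 and Car2, a carbonic anhydrase, 6.47-fold lower (3218 to 497.4). Lymphocyte genes (3 of 24 lower, 0 higher) and stromal genes (4 of 16 lower, 2 higher) had medians of -0.13 and -0.10. Vim, vimentin, an intermediate filament also abundant in blood cells, was 19.6-fold higher, and here eGFP day 3, at 317.0, was the array that stood apart from 5303, 6208 and 5939. Of 12 eosinophil and basophil genes 5 were higher and 4 lower, and the higher ones were genes shared with mast cells, Fcer1a, Cd200r3, Il4, Gata1 and Csf2rb. Prg2, an eosinophil granule protein, was 2.22-fold lower (186.3 to 83.9), and Epx and Prg3 were at the floor on both arrays.

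Genes of cell growth and division were lower as lists, with few members higher. Of 51 measured mitosis and spindle genes 30 were lower and 0 higher, median -1.31, and of 50 replication genes 26 were lower and 0 higher, median -1.01. Plk1, a kinase of mitotic entry, read 906.4 at eGFP day 3 and 75.5 at DKmix day 50 (12-fold lower), Aurka, which builds spindle poles, 1831 and 343.1 (5.34-fold), Bub1b, a checkpoint kinase, 2038 and 347.9 (5.86-fold), and Cdk1, the mitotic kinase, 4472 and 1549 (2.89-fold). The other arrays read 1042 and 967.7 for Plk1 and 1634 and 1024 for Aurka, close to eGFP day 3. DKmix day 50 was the dimmest of the 4 arrays for 39 of the 51 mitosis genes and 30 of the 50 replication genes, against 19.1% of all measured genes. Mcm2, of the replicative helicase, was 2.71-fold lower (720.2 to 266.2), Tk1, thymidine kinase, at least 8.77-fold lower (423.7 to 36.1) and Ccne1, cyclin E, 3.65-fold lower (591.4 to 161.9). Pcna, the polymerase clamp, read 8508 and 4951, and Rrm2, of ribonucleotide reductase, 1772 and 1840, both short of 2-fold by the sets used. Over plain _at probe sets the log2 ratio of Rrm2 was -3.37, and with the mean of all its probe sets -1.13. DKmix day 50 was also the array with the highest 3′ over 5′ ratios of Gapdh, β-actin and trpn, though not of thr, and whether that bears on these lists was not tested.

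Ribosome biogenesis genes were lower in 26 of 64 measured and higher in 1, median -0.77. Nop56, a box C/D particle protein, read 3834 and 760.3 (5.04-fold lower), Ncl, nucleolin, 2698 and 712.6 (3.79-fold) and Dkc1, dyskerin, 496.3 and 182.4 (2.72-fold). Npm1 and Fbl, nucleophosmin and fibrillarin, were 1.47-fold and 1.67-fold lower, short of 2-fold. Cytosolic ribosomal proteins differed less: 5 of 37 were lower and 0 higher, median -0.21, with Rpsa at 42959 and 37152 and Rpl41 at 47025 and 69058. Of 41 DNA repair genes 12 were lower and 4 higher, and Brca1 read 212.9 and 153.2. Of 20 telomerase and shelterin genes 7 were lower and 2 higher. Tert, the catalytic subunit of telomerase, was near the floor at eGFP day 3 (68.0) and below it at DKmix day 50 (6.7), with 60.9 and 13.2 on the other arrays.

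Among the brakes on division some genes were higher and some lower. Cdkn1a, the p21 inhibitor and a main target of p53, read 2974 and 2980, a 1.00-fold difference. Cdkn2a, the INK4A/ARF locus that immortal cells often lose, read 287.7 at DKmix day 50 and below the floor on the 3 other arrays (7.7, 3.7 and 2.0), at least 5.96-fold higher in this comparison. Rb1 was 2.43-fold higher (178.4 to 432.9), and Ccnd1, cyclin D, 2.13-fold lower (362.2 to 169.8). The list of CDK inhibitors, D cyclins and pocket proteins held 5 higher and 4 lower of 21. These were 23.8% and 19.0%, against 15.6% and 15% of all measured genes. Of 33 regulators and targets of p53, 9 were higher and 7 lower (27.3% and 21.2%, against 15.6% and 15%), median 0.33. Zmat3 was 4.06-fold higher (139.0 to 564.4), Ccng1 3.84-fold (731.1 to 2806), Bbc3, the PUMA death protein, at least 7.65-fold (34.7 to 369.3) and Gadd45g 8.13-fold (117.0 to 951.2). All 4 of these were also at least 2-fold higher at DKmix day 300 than at β-catenin day 3. Across the list, 8 of the 9 higher members were higher there too, and 4 of the 7 lower members were lower there. Between DKmix day 50 and eGFP day 3, further probe sets of Ccng1 gave 1.84-fold and 1.39-fold higher, both short of 2-fold. In the BCL2 family 5 of 17 were higher and 4 lower. Bcl2 read 165.9 and 838.1 (5.05-fold higher), Mcl1 1509 and 2666 and Bcl2l11, BIM, 205.6 and 193.8, the last 2 short of 2-fold. Further Bcl2l11 probe sets included 1 that was 3.36-fold higher (86.1 to 289.4) and 1 at least 2.24-fold lower (108.1 to 22.9). Bcl2l11 could therefore not be given a direction.

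Interferon-stimulated genes were lower in 21 of 45 measured and higher in 4, median -0.88. Oas2, an RNA sensor that makes oligoadenylate, read 575.7 and 5.8 (at least 11.9-fold lower), Ifih1, the sensor MDA5, 397.5 and 6.1 (at least 8.23-fold), Samhd1, a nucleotide hydrolase, 2221 and 232.7 (9.54-fold) and Irf7 155.1 and 71.5 (2.17-fold). Ifit1 read 77.1 and 12.3, short of 2-fold at the floor. DKmix day 50 was the dimmest of the 4 arrays for 18 of the 45, and eGFP day 3 the brightest for 7. Over all measured genes these shares were 19.1% and 27.3%. Of 17 NF-κB genes 4 were lower and 2 higher. Nfkbia, the inhibitor that NF-κB itself induces, was 5.53-fold lower (4493 to 812.3), and Tnfaip3, A20, 2.69-fold higher (187.3 to 502.9). Proteasome subunits were lower in 13 of 32 and higher in 0, median -0.77, from Psmc1 at 3.71-fold lower (779.2 to 209.9) to Psma1 at 2072 and 1924.

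Phgdh, which starts serine synthesis, read 4137 and 181.8 (22.8-fold lower), and 3 further probe sets gave 52.9-fold, at least 9.73-fold and 3.44-fold lower. Asns, asparagine synthetase, was 5.57-fold lower (997.6 to 179.2), while Atf4, the factor that induces both, read 1750 and 1709. The ATF4, serine and one-carbon list held 13 lower and 3 higher of 43, median -0.58. Of 31 glycolysis and hypoxia genes 12 were lower and 5 higher, median -0.34. Egln3, an oxygen-sensing prolyl hydroxylase, was 33.9-fold lower (1856 to 54.7), Pgk1 2.88-fold lower (8594 to 2989) and Hk2, a hexokinase, 3.13-fold lower (1657 to 528.8), while Ddit4, an inhibitor of mTORC1, was 4.45-fold higher (498.9 to 2220). Egln3 stood at 686.1 at β-catenin day 3 and 1526 at DKmix day 300, so DKmix day 50 was again the low array. Of 54 respiratory chain genes 10 were lower and 3 higher (18.5% and 5.56%, against 15% and 15.6% of all measured genes). Of 29 cholesterol and fatty acid genes 7 were lower and 2 higher (24.1% and 6.9%). Fdps, an enzyme of the isoprenoid path, was 3.21-fold lower (768.2 to 239.0) and Lss, lanosterol synthase, 4.12-fold higher (471.7 to 1944). Antioxidant genes held 8 lower and 5 higher of 34. Mgst2, a membrane glutathione transferase, was at least 129-fold lower (6252 to 29.0), and Nqo1, a target of NRF2, 3.05-fold higher (131.5 to 401.4). The unfolded protein response held 3 lower and 1 higher of 31, near or below the shares of all genes, with the chaperone Hspa5 at 12725 and 13939.

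Lysosomal genes, which overlap in kind with secretory granules, were higher in 13 of 45 measured and lower in 10, median 0.30. Ids, a sulfatase that degrades heparan sulfate, was 12.2-fold higher (151.0 to 1840), though 3 further measured probe sets with 1 array at the floor gave at least 3.01-fold to at least 3.78-fold. Ctsd, the aspartic cathepsin, was 2.01-fold higher (1903 to 3821). The cysteine cathepsins were lower, Ctsl by at least 9.62-fold (464.5 to 10.2) and Ctsh by 6.04-fold (314.5 to 52.1).

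Wnt and β-catenin genes had list medians near 0. Ctnnb1, the β-catenin gene itself, read 4732 at eGFP day 3 and 6034 at DKmix day 50 by its brightest probe set (1.27-fold). Its other probe sets gave 179.6 and 693.4 (3.86-fold) and 300.8 and 470.6 (1.56-fold), so 1 of the 3 passed 2-fold. The sources used here do not say whether any of them reads the retroviral transcript. Of 51 measured Wnt components 10 were higher and 2 lower, median 0.26. Ctnna1, which ties β-catenin to cadherins, was 5.82-fold higher (494.0 to 2877) and Apc, of the destruction complex, 2.62-fold higher (102.6 to 269.3), while Gsk3b read 615.6 and 592.9 and Lef1 7.1 and 62.9. Of 26 TCF targets 6 were higher and 7 lower, median -0.02. Axin2, the feedback target most used as a readout of Wnt signalling, read 71.8 and 287.5 (4.00-fold higher), against 40.7 at β-catenin day 3 and 91.4 at DKmix day 300. Tiam1, an activator of Rac, was 27.9-fold higher (198.8 to 5557). Birc5, survivin, which is also a mitosis gene, was 3.77-fold lower (1514 to 401.4).

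In the Notch pathway 4 of 26 genes were higher and 2 lower (15.4% and 7.69%, against 15.6% and 15% of all measured genes). The receptors diverged by the sets used, with Notch1 6.50-fold lower (1952 to 300.5) and Notch2 5.46-fold higher (666.1 to 3639). With the mean of all its probe sets the log2 ratio of Notch2 was 0.83, short of 2-fold. The Notch target Hes1 was at least 8.95-fold higher (43.7 to 432.2). Of 50 chromatin regulators 8 were higher and 8 lower, median 0.04, close to all genes. Kdm2b was 4.97-fold lower (1083 to 218.0) and Dnmt3a 2.63-fold lower (474.6 to 180.6), while Ezh2, the Polycomb methyltransferase, read 666.0 and 566.0. Of 12 housekeeping genes 2 were higher and 3 lower, with Actb at 30995 and 31891 and Hprt at 2381 and 1436.

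**Figure D4:**
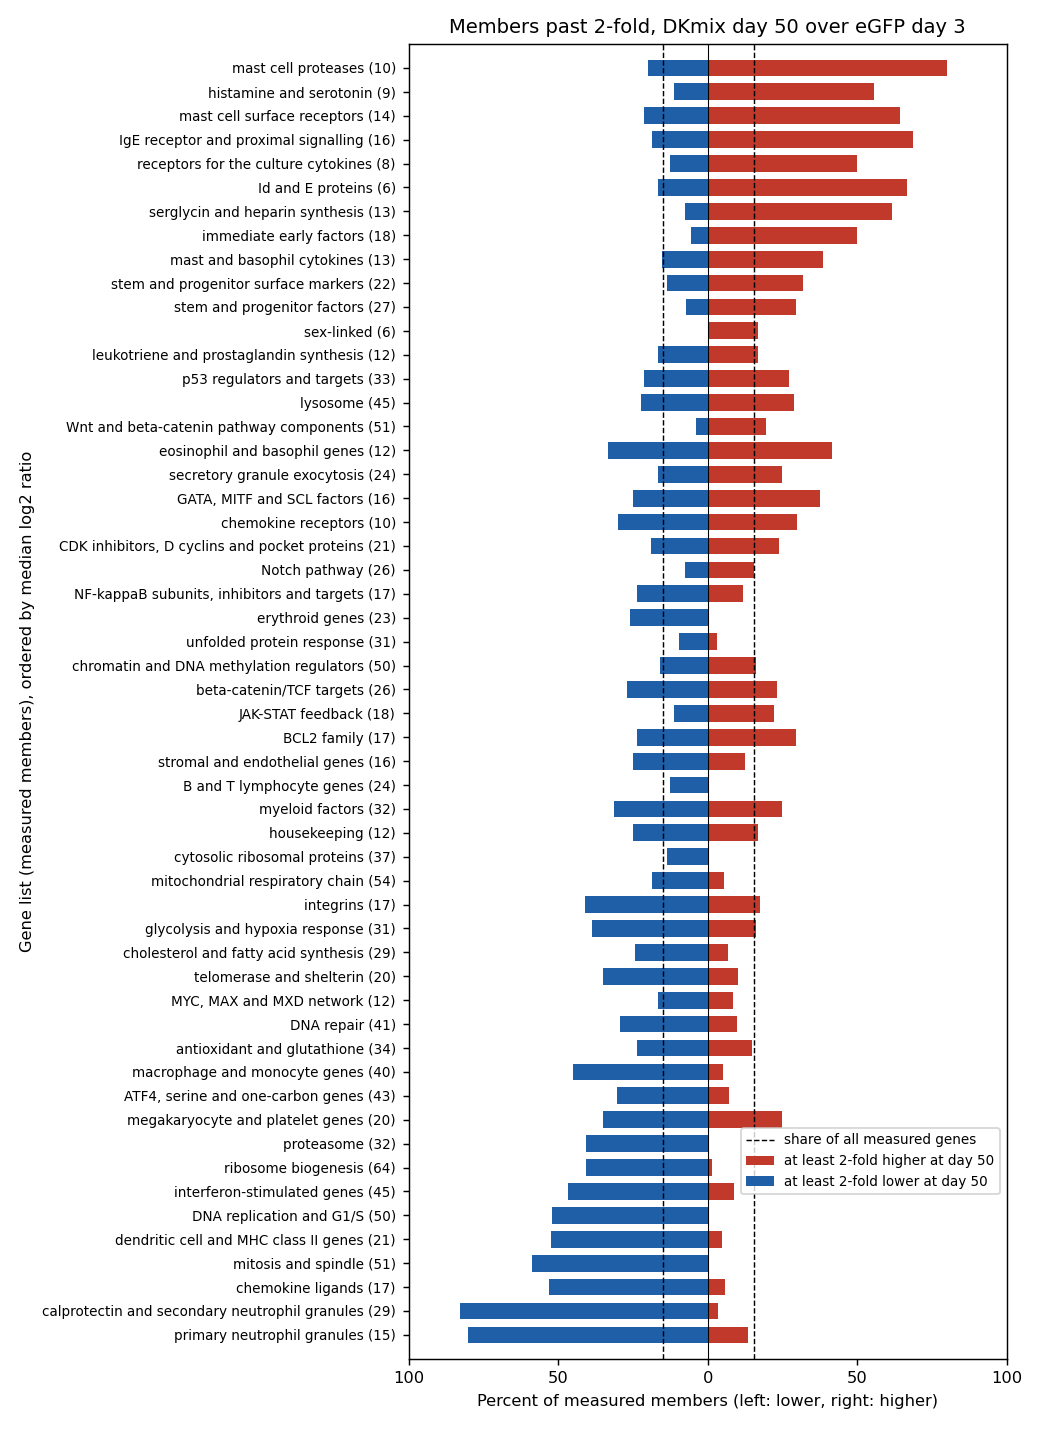
Each row is a gene list with its number of measured members, ordered by median log2 ratio. Bars give the percent of measured members at least 2-fold higher (red, to the right) and lower (blue, to the left) at DKmix day 50 than at eGFP day 3, and the dashed lines the shares over all measured genes, 15.6% and 15%. Mast cell lists lie at the top, and neutrophil granule, chemokine and mitosis lists at the bottom.

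The other later-over-earlier pair that shares neither array, DKmix day 300 over β-catenin day 3, was set beside these values. In that pair 1773 genes were higher (14% of 12656 measured) and 1828 lower (14.4%). Of the 2151 genes higher here, 612 were higher there, 28.5% of this list and 34.5% of that one, and 142 were lower there. Of the 2071 lower genes 596 were lower there, 28.8% and 32.6% of the 2 lists, and 143 were higher. For the rest, 1120 and 1143 genes were short of 2-fold there and 277 and 189 were not measured. Cells of both DKmix samples came from β-catenin-transduced cultures, and the sources used here do not say whether the 2 pairs came from separate animals.

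The share of genes past 2-fold in both pairs varied between lists. In the IgE receptor list 9 of the 11 higher genes were also higher there, and in the amine list 5 of 5. Of the protease list 4 of 8 were, and Gzmb and Mcpt2 were among those that were not. Of the lower genes, 14 of 24 for the secondary and 8 of 12 for the primary neutrophil granules were lower there too, 14 of 18 macrophage genes, 9 of 11 class II and dendritic genes, 15 of 21 interferon-stimulated genes and 21 of 26 ribosome biogenesis genes. For mitosis and spindle it was 0 of 30, with a median of 0.11 in that pair, and for glycolysis and hypoxia 0 of 12, with a median of 0.77. Plk1 was 1.08-fold lower there and Cdk1 1.49-fold lower, both short of 2-fold, and Egln3 2.22-fold higher. Replication genes lay between, with 13 of 26. The denominators in this paragraph can include genes that were not measured in that pair. Of the 29 secondary granule genes measured here, 22 were measured there, and 17 were lower. Ltf (8.4 and 18.2) and Camp (28.9 and 15.6) were under the floor at both β-catenin day 3 and DKmix day 300.

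**Figure D5:**
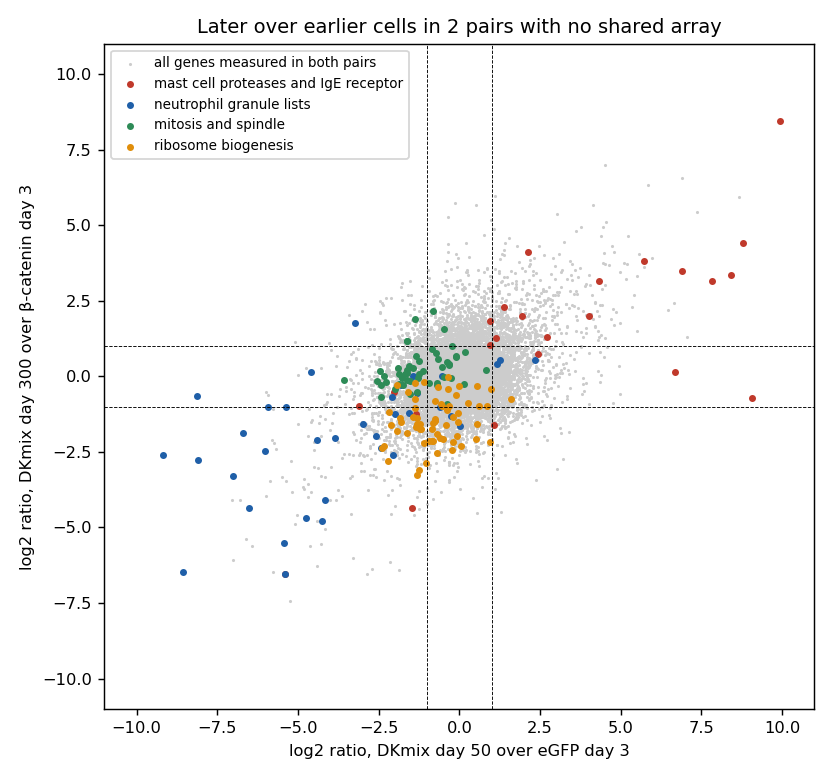
Each point is 1 gene measured in both pairs, placed by its log2 ratio of DKmix day 50 over eGFP day 3 (horizontal) and of DKmix day 300 over β-catenin day 3 (vertical), with dashed lines at 2-fold. Ratios with 1 array at the floor are drawn at their bound. Most mast cell genes lie at the upper right and most neutrophil granule genes at the lower left, while mitosis genes lie left of centre near 0 on the vertical axis.

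The position of each array among the 4 differed for the higher and the lower genes. DKmix day 50 was the brightest array for 75% of the 2151 higher genes, against 34.2% of all measured genes. The eGFP day 3 array was the dimmest for 47.0%, against 15.8%. For the 2071 lower genes DKmix day 50 was the dimmest for 58.9% and eGFP day 3 the brightest for 60.9%. Over all measured genes those were 19.1% and 27.3%. The shares of the higher and the lower genes follow in part from their choice by this ratio and are given as a description.

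Probe sets of the same gene gave the limit of precision. Among 1935 genes past 2-fold with a second measured probe set, 1422 (73.5%) had it in the same direction, 666 (34.4%) had both past 2-fold and 103 (5.32%) had the second past 2-fold the other way. Several leading genes had second sets with smaller ratios, Igfbp5 with 2.96-fold against at least 164-fold, and Inpp4b, a lipid phosphatase, with at least 1.23-fold against at least 101-fold. Prnp, the prion protein, by contrast gave 132-fold and at least 249-fold, and Ms4a2 gave 226-fold and at least 35.0-fold. Cpa3 and Fcer1a had 1 single-symbol probe set each, so no second set could be compared for them.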

How the data were processed

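RNA of 4 mouse samples was measured on 1 Affymetrix array each, from biotin-labelled cRNA per the labels' protocols. The authors deposited 1 linear intensity for each probe set on each array, computed by MAS5 according to the submitters' processing notes. The MAS5 version and any detection calls are not given in the sources used here. On each array the mean after trimming (2% off each end) was 150, so no further scaling was applied. MAS5 summarises probes near the 3′ end of transcripts, so RNA with a high 3′ over 5′ ratio can read low where probes lie further 5′. The number of arrays limits the precision, and no test was run.

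Symbols came from the platform annotation table: 34945 probe sets had 1 symbol, 932 several, 9160 were unnamed and 64 were controls. By Entrez identifier 34741 matched RefSeq (GRCm38.p6), and 0 symbols were updated. For each gene the probe set brightest on average (mean of log2 over the 4 arrays) was used. Genes without a single-symbol probe set, such as Ly6a and Trp53, were not analysed here. There were 0 unused value columns. The counting of genes past 2-fold was checked on simulated arrays with known ratios.

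Genes named in the text were the 12 with the highest and the 12 with the lowest ratio of those reaching 4 times the floor on either array, the key members of 54 gene lists, up to 4 more per list with the biggest differences of 2-fold or more, and the 5 brightest genes of each array. The comparison and lists (1561 genes, 106 in more than 1 list) were chosen with earlier results of these data known. Alternatives were quantile normalization, lowess centring (fraction 0.3), hybridisation control scale, floors of 11.0 and 134.6 (percentiles 25 and 75), other probe set rules, and a 3-fold threshold. Promoters were RefSeq sequences of the 250 bases before each start, searched on both strands. Python 3.11.15, numpy 2.4.6, pandas 2.3.3, statsmodels 0.14.6 and matplotlib 3.10.9 were used.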

Additional observations from a re-analysis of the deposited data

How the results depend on the processing

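No paired analysis was possible because each group held 1 array. With 1 array on each side nothing here separates culture from array, and near the floor a ratio is set by the floor. The counts of genes past 2-fold (2151 higher, 2071 lower) were within 1.5 times under quantile normalization, lowess centring, the brightest probe set on the 2 arrays and plain _at probe sets. Scaled on the hybridisation controls they were 1025 and 3715. With the floor at percentile 25 they were 4345 and 4014, and at percentile 75, with fewer genes measured, 1054 and 1171. The mean of all probe sets gave 1387 higher genes and kept the lower count within 1.5 times. At 3-fold the counts were 835 and 836, over single probe sets 3772 and 3348, and over genes with 2 or more measured probe sets all past 2-fold 242 and 211.

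The median log2 ratio of mast cell proteases (6.20) was 3.72 and 5.42 with the lower and the higher floor, 5.20 with the mean of all probe sets and 4.20 with plain _at probe sets. Secondary neutrophil granules (-2.99) gave -4.22 with the lower floor and -2.09 when a gene's probe sets were averaged, and primary granules (-3.22) gave -2.42 when they were averaged. Of all 54 lists under the 8 alternatives, 20 had a median of the other sign at least once, 16 of them on the hybridisation control scale. Of the 20, 1 had a median of at least 1 in size, the receptors for the culture cytokines (1.21, and -0.05 on that scale), and the rest were at most 0.50. Mast cell proteases, IgE receptor, both neutrophil granule lists, macrophage and MHC class II were not among the 20. Nor were ribosome biogenesis, replication, mitosis and interferon-stimulated genes, which complete the 10 lists that carry the main comparison. The hybridisation control scale lowers ratios, and these medians were below 0 already or, for mast cell proteases and IgE receptor, at 6.20 and 1.66. That setting could hardly turn them, so their absence is no check of them. Of 282 named genes past 2-fold, 263 were past it the same way on the hybridisation control scale, 277 under quantile normalization and 233 when probe sets were averaged.

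Some single genes turned direction with the probe set rule. With the brightest probe set on the 2 arrays Arsb was 1.08 and Terf1 1.21. With the mean of all probe sets Bcl2l1 was 0.09, Fancg 0.04 and Terf1 0.17. With plain _at probe sets Lat2 was -0.32, Mgst1 0.02, Nfkbib -0.49, Tcf12 -1.04, Terf1 1.21, Terf2ip -0.14, Tubb5 0.23, Vegfa 0.75 and Xbp1 1.19. These alternatives read other probe sets of the gene, and beyond that the cause was not tested.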
